A study of Homo sapiens with 18 samples.

Results

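Replication-dependent histone genes encode the core histones H2A, H2B, H3 and H4 and the linker histone H1 that package newly copied DNA. Rows of the deposited table were matched by symbol, as H1-1 to H1-6 or as H2AC, H2BC, H3C or H4C with a number, or by an older name of the HIST1 to HIST4 series. Pseudogenes, 20 matching rows, were left out. This gave 35 genes of the 57773 rows: 6 for H1, 9 for H2A, 10 for H2B, 6 for H3 and 4 for H4. GENCODE 29 lists 70 protein-coding genes with such names, and the 35 whose identifiers match no row were not analysed here.

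The cells were RPE1, an established human line of retinal pigment epithelium. They were untreated, given cytochalasin D, an actin poison that stops the division of the cell body, or given ZM447439, which inhibits the Aurora kinases of mitosis. By flow cytometry each treatment was sorted into cells with 2N and with 4N DNA content, with 3 biological replicates for each of the 6 groups and 18 libraries in all. All groups grew with 10% serum and their DNA was labelled for 60 min with Hoechst at 2 µg/mL. The labels give ZM447439 as 2.5 µM for 24 h in the same text on all libraries, the untreated ones included, and no dose or time for cytochalasin D. Diploid cells in G2 or mitosis and tetraploid cells in G1 both hold a 4N content, so a 4N sort can contain either.

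Most messages of these genes are made in S phase and end in a short stem-loop in place of a poly(A) tail. The stem-loop binds SLBP, the stem-loop binding protein, which takes part in the cut at the end of the transcript, in its translation and in its loss when DNA synthesis stops. Some of the genes can also be read past the stem-loop to a downstream poly(A) signal, and such polyadenylated forms are known from cells that have left the cycle or differentiated. The libraries held polyadenylated RNA, so the tailless messages were selected against and all values below are of the polyadenylated part of the output. In bulk samples, fewer cells that express a gene and less RNA per cell cannot be told apart.

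The stem-loops are shown because they divide the tailless from the read-through form of a message. The GENCODE 29 transcripts were searched for 16 bases that start with GG, end with CC, can pair over a stem of 6 base pairs and have TTT at the start of a loop of 4 bases. The search found 4 sequences in the coding transcripts of 18 of the 35 genes. The stem bases are in capitals.

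H2BC21, H2AC6, H2AC25, H2AC13, H2BC13, HIST2H2AA3, H2BC15, H2BC18, H2BC26, H3C14 and H3C15: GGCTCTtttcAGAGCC
H2AC11: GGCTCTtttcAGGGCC
H2BC4, H2BC5 and H3-4: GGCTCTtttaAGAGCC
H4C8, H4C11 and H4C16: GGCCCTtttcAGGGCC

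Several annotated transcripts run on well past the stem-loop. The H2BC21 transcript continues for 1729 bases after it, the longer coding transcript of H2AC6 for 1114 and the H2AC11 transcript for 1761, and each of these 3 carries AATAAA, the main poly(A) signal, in its last 40 bases. One of the coding transcripts of H4C8 ends 18 bases after the stem-loop, and the other continues for 630 bases to an AATAAA. HIST2H2AA3 stops 35 bases after the stem-loop, with an AATAAA there. H2AC25 continues for 390 bases with no AATAAA in its last 40. A stem-loop lay in the last 100 bases of 18.2% of the 44 coding transcripts of the histone genes and of 0.00722% of the 83085 other coding transcripts. AATAAA lay in the last 40 bases of 27.3% and 34.4% of them. Gene models that stop at or near the stop codon, such as that of H2BC12, hold no stem-loop to find.

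Promoters, the 250 bases before the start of transcription in RefSeq (GRCh38.p14), matched 33 of the 35 genes, 21 on chromosome 6, 11 on chromosome 1 and 1 on chromosome 12. Those of 5 genes on which the results turn are printed, with TATAAA (the TATA box), CCAAT and ATTTGCAT (the octamer bound by POU2F1, also called OCT-1) in capitals on both strands. TTTATA is TATAAA on the other strand and can overlap it, as in TTTATAAA.

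H2BC21, chr1:149886683-149886932, minus strand: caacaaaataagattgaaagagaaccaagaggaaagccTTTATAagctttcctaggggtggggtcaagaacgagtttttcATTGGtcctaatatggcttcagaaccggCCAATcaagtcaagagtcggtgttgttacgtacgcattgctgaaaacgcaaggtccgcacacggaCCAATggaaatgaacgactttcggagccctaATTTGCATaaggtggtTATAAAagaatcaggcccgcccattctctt
H2AC6, chr6:26123922-26124171, plus strand: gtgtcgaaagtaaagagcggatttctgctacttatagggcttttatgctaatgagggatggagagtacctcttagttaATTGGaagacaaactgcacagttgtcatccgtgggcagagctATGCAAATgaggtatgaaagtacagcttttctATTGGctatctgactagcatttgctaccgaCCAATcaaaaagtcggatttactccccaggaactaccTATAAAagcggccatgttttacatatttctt
H2AC25, chr1:228457874-228458123, minus strand: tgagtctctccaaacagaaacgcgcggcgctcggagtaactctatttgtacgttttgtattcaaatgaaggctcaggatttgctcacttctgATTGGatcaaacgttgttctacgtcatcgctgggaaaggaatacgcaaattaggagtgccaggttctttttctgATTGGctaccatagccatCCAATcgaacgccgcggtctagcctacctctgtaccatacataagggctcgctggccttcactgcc
H2AC11, chr6:27132793-27133042, plus strand: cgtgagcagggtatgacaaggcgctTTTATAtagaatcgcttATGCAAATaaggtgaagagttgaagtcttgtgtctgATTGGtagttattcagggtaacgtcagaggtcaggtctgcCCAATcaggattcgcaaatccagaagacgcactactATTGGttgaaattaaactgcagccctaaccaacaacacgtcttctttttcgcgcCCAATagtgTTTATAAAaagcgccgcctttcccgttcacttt
H2BC12, chr6:27146856-27147105, minus strand: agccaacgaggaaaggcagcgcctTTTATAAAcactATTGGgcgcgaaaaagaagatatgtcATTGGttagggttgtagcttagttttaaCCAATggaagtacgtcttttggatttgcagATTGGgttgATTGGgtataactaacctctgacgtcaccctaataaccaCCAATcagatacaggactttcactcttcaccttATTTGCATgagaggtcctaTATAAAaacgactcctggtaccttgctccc

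TATAAA was in 24 of the 33 histone promoters (72.7%) and in 11.2% of the 27272 other promoters in the table. CCAAT was in 30 (90.9%, against 32.8% of the others) and ATTTGCAT in 12 (36.4%, against 1.64%). Of the 5 printed, H2AC25 held neither TATAAA nor ATTTGCAT in this window, and the other 4 held all 3 motifs. Such matches describe the letters and are not sites of binding.

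Depth and spread bear on all values. The deposited unit is RPKM, reads scaled to library size and gene length, and its low values came out as whole reads only when the whole span of a gene, introns included, was taken as its length. A gene with a long span therefore has a low RPKM for its number of reads. The kit did not mark strand, so reads of other genes that overlap such a span cannot be told apart from its own. The implied size of the libraries was 51135642 to 78294394 reads. In each sort, replicate 3 of the untreated and replicate 1 of each drug lay farthest from the other libraries of its group, with a median difference in log2 level of 0.0853 to 0.155 against 0.0635 to 0.108 for the remaining 12 libraries. Results are given with and without these 6 libraries where that changes a call. Every group has a farthest library, so leaving these out lowers the spread within groups by selection. The adjusted p-values of that fit therefore tend to be too small, and its calls are a description. For ZM447439 between the sorts, 40.3% of all genes passed in it, against 7.66% with all libraries. Of 12 listed markers of pigment epithelium, BEST1, KRT18, KRT8, OTX2 and PMEL had mean levels of 86.6, 65.8, 7.77, 3.12 and 1.95 RPKM. MITF, SERPINF1 and RLBP1 had means of 0.151, 0.130 and 0.0625 RPKM, and RPE65, TYR, DCT and TTR of at most 0.0103 RPKM. The 6 blood cell markers had means of at most 0.174 RPKM.

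Of the 35 genes, 12 reached a mean of 0.5 RPKM over the 18 libraries and were tested: 2 for H1, 6 for H2A, 3 for H2B, 0 for H3 and 1 for H4. The other 23 had means from 0 to 0.399 RPKM, the highest being H4C3 at 0.399 and H2AC7 at 0.394, and H2AC1 and H2BC1 were at 0 reads in all libraries. Tests were by limma on log2(RPKM + 0.5) over all 13037 genes that reached this mean, with Benjamini-Hochberg adjustment and a threshold of 0.05. Changes are on that log2 scale, which understates those of low genes, and errors are standard errors (SE). H2AC6 and H4C8 stayed below 0.5 RPKM in all untreated libraries and reached the mean through the drug groups, so they had to differ and the counts over the 12 genes are a description only. H2BC13 reached the mean through the untreated groups, with means of 0.785 and 0.840 RPKM there and 0.388 to 0.443 RPKM in the drug groups. Its changes with the drugs are therefore a description too.

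The sum of polyadenylated histone RNA was higher under both drugs. Summed over all 35 genes, the RPM (reads scaled to library size alone) were 43.0, 45.9 and 40.3 in untreated 2N cells and 38.9, 34.7 and 19.3 in untreated 4N cells. Under cytochalasin D they were 133, 85.2 and 91.4 in 2N and 108, 69.3 and 69.7 in 4N cells. Under ZM447439 they were 95.6, 71.9 and 73.8 in 2N and 77.4, 59.7 and 55.4 in 4N cells. No drug library was as low as an untreated one, and replicate 1 was the highest of each drug group. A few genes weigh heavily in this sum. From untreated to cytochalasin D 2N cells the mean of H2AC6 went from 4.31 to 24.9 RPM and that of H2BC12 from 11.5 to 21.8 RPM. The means of H2BC21 and H1-2 went from 3.01 to 11.8 RPM and from 4.27 to 11.2 RPM. Of the 22 genes tested on RPM, 5 had a change below 0 in that comparison.

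In 4N cells 9 of the 12 genes rose and 0 fell under cytochalasin D, where 70.5% of all genes tested passed, 26.1% as higher and 44.4% as lower. Their median change was 0.83, beside -0.13 for all genes. Under ZM447439, 8 rose and 0 fell, where 55.2% of all genes passed, 19.6% as higher and 35.5% as lower, with medians of 0.54 and -0.07. In 2N cells 9 rose and 1 fell under cytochalasin D (66.6% of all genes passed, 27.1% as higher and 39.5% as lower; medians 0.70 and -0.08), and 7 rose and 1 fell under ZM447439 (56% passed, 23.6% as higher and 32.5% as lower; medians 0.58 and -0.04). The gene that fell was H2AC11 for both drugs. Without the 6 libraries that stood apart, 9 rose and 1 fell with cytochalasin D and 7 rose and 2 fell with ZM447439 in 4N cells (76.9% and 65.5% of all genes passed), and 8 rose and 1 fell with each in 2N cells (74.7% and 68.7%). Rescaling the libraries by median ratios moved the median of all genes from -0.13 to 0.0020 for cytochalasin D in 4N cells, and under none of the scalings tried did a called change of a histone gene reverse. Both drugs were compared with the same untreated libraries.

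**Figure D1:**
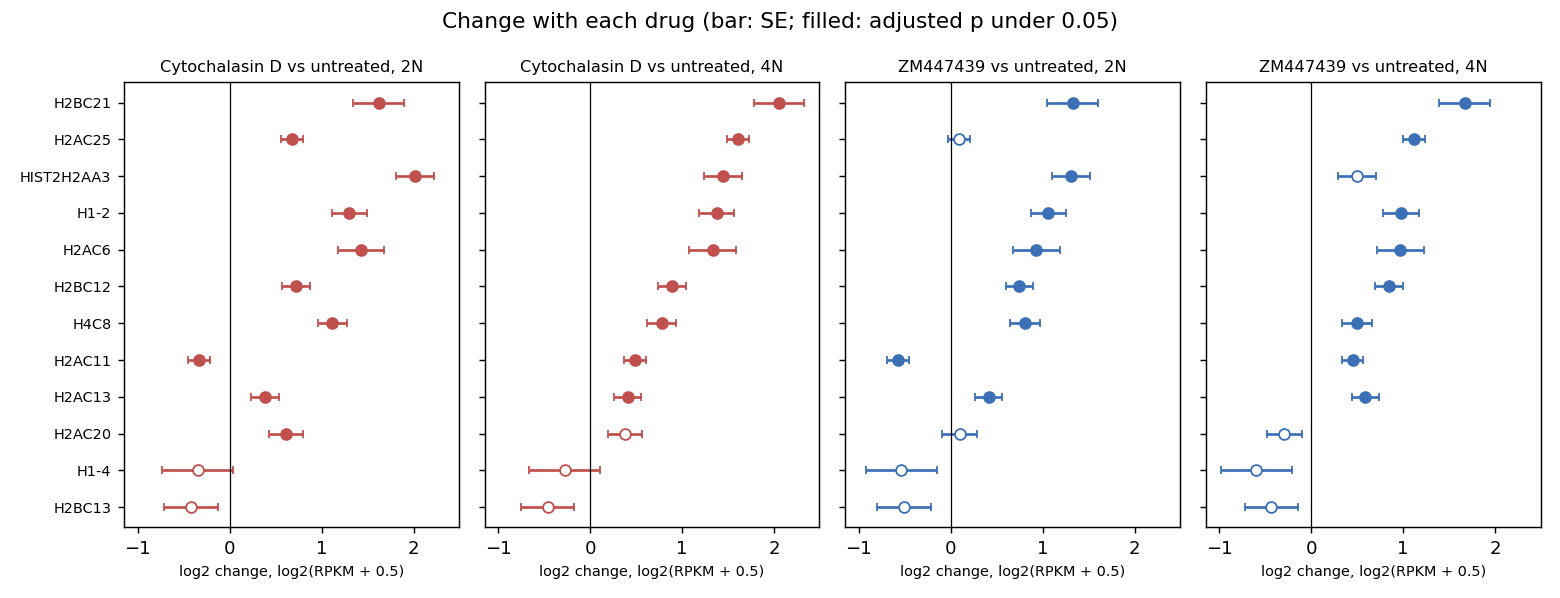
Change of each of the 12 tested histone genes with each drug in each sort, as the log2 change of RPKM + 0.5 on the x axis, with bars for the standard error and filled points for an adjusted p under 0.05. H2BC21 and HIST2H2AA3 reach 2.05 and 2.01, H2AC11 lies above 0 in 4N and below 0 in 2N cells, and H1-4 and H2BC13 lie below 0 with open points.

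Among linker histones, H1-2 and H1-4 were tested. H1-2, also named HIST1H1C and known for a polyadenylated form, had the highest mean RPKM of the 35 genes over all 18 libraries, although H2AC25 was higher in untreated 2N cells. It measured 4.92, 6.60 and 5.96 RPKM in untreated 2N and 6.01, 5.06 and 4.06 RPKM in untreated 4N cells. Under cytochalasin D it stood at 19.7, 12.5 and 13.7 RPKM in 2N and 17.6, 11.8 and 12.5 RPKM in 4N cells. Under ZM447439 it stood at 14.5, 12.2 and 11.4 RPKM in 2N and 11.5, 10.7 and 8.79 RPKM in 4N cells. All 12 drug libraries were above all 6 untreated ones, whichever the sort. In limma the change was 1.38 (SE 0.19, adjusted p = 1.44e-05) with cytochalasin D and 0.98 (SE 0.19, adjusted p = 0.000587) with ZM447439 in 4N cells, and 1.30 and 1.06 in 2N cells. H1-4 was highest in 2 of the untreated 4N libraries, at 3.16 and 2.46 RPKM, with 0.624 RPKM in the third of that group. It ranged over 0.344 to 1.60 RPKM in the other 15 libraries. Its changes of -0.28 to -0.60 with the drugs had an SE of 0.38 and did not pass. H1-4 fell in 4N cells by 0.84 with cytochalasin D and 0.94 with ZM447439 when the 6 libraries that stood apart were left out (SE 0.27, adjusted p = 0.0195 and 0.0146 in limma). That fit drops the untreated 4N library at 0.624 RPKM and keeps those at 3.16 and 2.46 RPKM, so the fall rests on this choice.

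**Figure D2:**
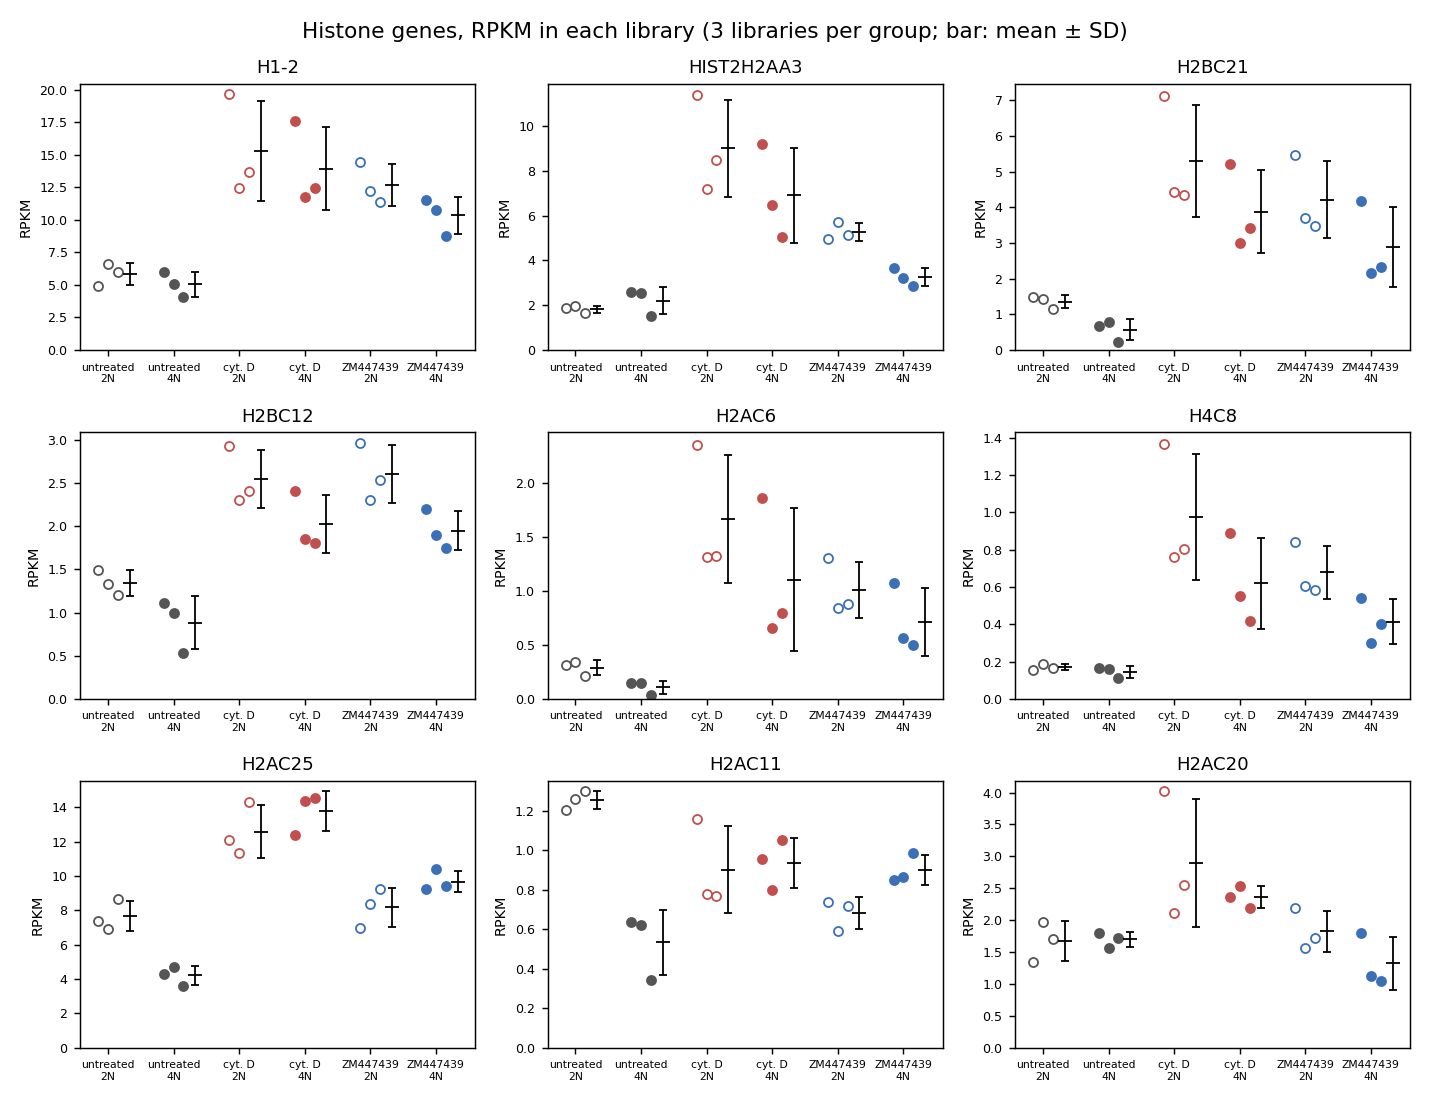
RPKM of 9 histone genes on the y axis in each library, by treatment and sort on the x axis (open points 2N, filled points 4N, bars mean ± SD of 3 libraries). H1-2, HIST2H2AA3, H2BC21, H2BC12, H2AC6 and H4C8 are higher in all drug libraries than in all untreated ones. For H2AC25 all untreated 4N libraries lie below the other libraries. H2AC11 has its single lowest library in untreated 4N cells, and H2AC20 overlaps between the groups.

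Of the H2B genes, H2BC21 showed the largest rise in 4N cells among the 12 genes. H2BC21, also named HIST2H2BE, lies on chromosome 1 and makes the long read-through transcript given above. Its levels were 1.49, 1.42 and 1.15 RPKM in untreated 2N and 0.677, 0.789 and 0.228 RPKM in untreated 4N cells. With cytochalasin D they were 7.13, 4.44 and 4.36 RPKM in 2N and 5.21, 3.01 and 3.43 RPKM in 4N cells. With ZM447439 they were 5.46, 3.70 and 3.49 RPKM in 2N and 4.19, 2.15 and 2.34 RPKM in 4N cells. The lowest drug library thus exceeded the highest untreated one. In 4N cells the change was 2.05 (SE 0.27, adjusted p = 9.99e-06 in limma) with cytochalasin D and 1.67 (SE 0.27, adjusted p = 0.000137) with ZM447439, and in 2N cells 1.62 and 1.33.

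H2BC12, also named HIST1H2BK, had the most reads of the 35 genes, 966 per library on average over a span of 8547 bases. It measured 1.5, 1.34 and 1.20 RPKM in untreated 2N and 1.12, 0.997 and 0.534 RPKM in untreated 4N cells. It measured 2.93, 2.30 and 2.41 RPKM in 2N and 2.41, 1.86 and 1.8 RPKM in 4N cells under cytochalasin D. Under ZM447439 its levels were 2.97, 2.31 and 2.54 RPKM in 2N and 2.20, 1.90 and 1.75 RPKM in 4N cells. Again no drug library overlapped the untreated ones. H2BC12 rose by 0.89 (SE 0.15, adjusted p = 0.000101 in limma) and 0.85 in 4N cells and by 0.72 and 0.75 in 2N cells, with cytochalasin D and ZM447439 in that order. The first of these was 0.58 without the 6 libraries that stood apart, and still passed. H2BC13, with 14.7 reads per library on average, ranged from 0.213 to 1.44 RPKM, and its changes of -0.42 to -0.51 (SE 0.29) did not pass.

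Among the H2A genes, HIST2H2AA3 rose most in 2N cells on log2(RPKM + 0.5). This gene, named H2AC18 in RefSeq, lies in a duplicated stretch of chromosome 1 with near-identical copies, so reads may have been shared or lost between copies. It stood at 1.86, 1.96 and 1.66 RPKM in untreated 2N and 2.59, 2.52 and 1.5 RPKM in untreated 4N cells. Under cytochalasin D it stood at 11.4, 7.18 and 8.47 RPKM in 2N and 9.21, 6.46 and 5.05 RPKM in 4N cells. Under ZM447439 it stood at 4.95, 5.71 and 5.13 RPKM in 2N and 3.68, 3.23 and 2.85 RPKM in 4N cells. Every drug library was above every untreated one, with the ZM447439 4N cells closest to them. The change with cytochalasin D was 2.01 (SE 0.21, adjusted p = 7.33e-07 in limma) in 2N and 1.44 in 4N cells. With ZM447439 it was 1.31 in 2N cells and 0.50 (adjusted p = 0.0544 in limma) in 4N cells, where it did not pass. On RPM, reads scaled to library size without length, that change was 0.56 and passed (adjusted p = 0.0441 in limma), while on RPKM without the 6 libraries that stood apart it was 0.21 (adjusted p = 0.148 in limma).

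H2AC6, also named HIST1H2AC and known for a polyadenylated form, was spread over a span of 14972 bases and held 736 reads per library on average. It measured 0.311, 0.344 and 0.209 RPKM in untreated 2N and 0.143, 0.144 and 0.0362 RPKM in untreated 4N cells. With cytochalasin D the values were 2.35, 1.32 and 1.32 RPKM in 2N and 1.86, 0.658 and 0.791 RPKM in 4N cells. With ZM447439 they were 1.31, 0.843 and 0.883 RPKM in 2N and 1.07, 0.567 and 0.495 RPKM in 4N cells. The untreated libraries lay below all the others, and replicate 1 was the highest in each drug group. H2AC6 differed by 1.33 (SE 0.25, adjusted p = 0.000276 in limma) and 0.97 in 4N cells and by 1.43 and 0.93 in 2N cells, for cytochalasin D and ZM447439. It reached the RPKM minimum through the drug groups and had to differ, so these values are a description.

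H2AC13 and H2AC20 responded less and held few reads, 24.6 and 51.1 per library on average. H2AC13 ranged from 0.296 to 0.709 RPKM in the untreated libraries, 0.505, 0.663 and 0.550 in 2N and 0.709, 0.462 and 0.296 in 4N cells. Its values were 1.11, 0.711 and 0.895 RPKM in 2N and 0.852, 0.754 and 0.775 RPKM in 4N cells under cytochalasin D. They were 0.935, 1.05 and 0.799 RPKM in 2N and 1.26, 0.958 and 0.729 RPKM in 4N cells under ZM447439. The drug libraries were above the untreated ones, by a small margin. H2AC13 rose by 0.38 to 0.59 in the 4 comparisons (SE 0.15, adjusted p from 0.00412 to 0.0359 in limma). These calls were not firm: without the 6 libraries that stood apart H2AC13 did not pass in 3 of them, at 0.23 and 0.27 with cytochalasin D in 4N and 2N cells and 0.31 with ZM447439 in 4N cells. Single libraries decided them too: the cytochalasin D rise in 4N cells was lost without untreated 4N replicate 2 (0.40) or 3 (0.26) or cytochalasin D 4N replicate 1 (0.38). In 2N cells the cytochalasin D rise was lost without untreated replicate 1 (0.34) or 3 (0.37) or cytochalasin D replicate 1 (0.28) or 3 (0.38), and the ZM447439 rise without untreated replicate 1 (0.37) or 3 (0.40) or ZM447439 replicate 1 (0.41) or 2 (0.35).

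H2AC20 had levels of 1.34, 1.97 and 1.71 RPKM in untreated 2N and 1.8, 1.57 and 1.72 RPKM in untreated 4N cells. Cytochalasin D cells held 4.02, 2.11 and 2.55 RPKM in 2N and 2.37, 2.53 and 2.18 RPKM in 4N cells, all above the untreated libraries. ZM447439 cells held 2.19, 1.56 and 1.72 RPKM in 2N and 1.8, 1.12 and 1.04 RPKM in 4N cells, which overlapped the untreated range. The gene rose with cytochalasin D in 2N cells by 0.61 (SE 0.19, adjusted p = 0.0101 in limma), a call that was lost without cytochalasin D 2N replicate 1 (0.39, adjusted p = 0.0567 in limma) and was 0.40 and kept without the 6 libraries that stood apart. Its other changes were 0.38 with cytochalasin D in 4N, 0.10 with ZM447439 in 2N and -0.29 with ZM447439 in 4N cells, and none of these passed. The first and last of these were 0.39 and -0.46 and passed without the 6 libraries that stood apart (adjusted p = 0.0336 and 0.0192 in limma).

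H4C8, also named HIST1H4H, was the single H4 gene tested. It stood at 0.157, 0.188 and 0.163 RPKM in untreated 2N and 0.164, 0.161 and 0.109 RPKM in untreated 4N cells. The values were 1.37, 0.758 and 0.806 RPKM in 2N and 0.891, 0.553 and 0.418 RPKM in 4N cells under cytochalasin D, and 0.841, 0.607 and 0.586 RPKM in 2N and 0.539, 0.302 and 0.402 RPKM in 4N cells under ZM447439. All drug libraries lay above the untreated ones. With cytochalasin D the change was 1.12 in 2N and 0.78 in 4N cells, and with ZM447439 it was 0.81 in 2N and 0.50 in 4N cells (SE 0.16). The last of these had an adjusted p of 0.016 in limma and was lost without untreated 4N replicate 3 (0.46) or ZM447439 4N replicate 1 (0.40), and under quantile normalization (0.28). H4C8 reached the RPKM minimum through the drug groups and had to differ, so its changes are a description.

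H2AC25 and H2AC11 were both lower in untreated 4N than in untreated 2N cells. H2AC25, also named HIST3H2A, lies outside the main histone cluster, in a small cluster on chromosome 1. It measured 7.39, 6.94 and 8.64 RPKM in untreated 2N cells and 4.31, 4.70 and 3.6 RPKM in untreated 4N cells. Under cytochalasin D it measured 12.1, 11.4 and 14.3 RPKM in 2N and 12.4, 14.4 and 14.5 RPKM in 4N cells. Under ZM447439 it measured 6.97, 8.36 and 9.22 RPKM in 2N and 9.23, 10.4 and 9.40 RPKM in 4N cells. Untreated 4N cells were thus the lowest group, and ZM447439 2N cells overlapped untreated 2N cells. In 4N cells the gene rose by 1.60 (SE 0.12, adjusted p = 2.00e-08 in limma) with cytochalasin D and by 1.12 with ZM447439, and in 2N cells by 0.68 with cytochalasin D, while the ZM447439 change of 0.09 (adjusted p = 0.564 in limma) did not pass. That change was 0.28 and passed without the 6 libraries that stood apart (adjusted p = 0.0421 in limma).

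H2AC11, also named HIST1H2AG, had 1.20, 1.26 and 1.30 RPKM in untreated 2N cells and 0.634, 0.619 and 0.344 RPKM in untreated 4N cells. With cytochalasin D it had 1.16, 0.776 and 0.770 RPKM in 2N and 0.953, 0.800 and 1.05 RPKM in 4N cells. With ZM447439 it had 0.739, 0.590 and 0.715 RPKM in 2N and 0.850, 0.862 and 0.985 RPKM in 4N cells. Untreated 2N cells were the highest group and untreated 4N cells held the lowest library. In 4N cells H2AC11 rose by 0.48 and 0.45 with cytochalasin D and ZM447439, and in 2N cells it fell by 0.34 and 0.57 (SE 0.12). The smallest of these, with cytochalasin D in 2N cells (adjusted p = 0.0214 in limma), was lost without untreated 2N replicate 3 (-0.32) or cytochalasin D 2N replicate 2 (-0.27) or 3 (-0.27), and under rescaling by median ratios (-0.26).

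Between the sorts of untreated cells, the histone genes that passed were lower in 4N. In untreated 4N against 2N cells 0 histone genes rose and 3 of 12 fell, where 17.4% of all genes passed and 4.55% passed as lower. H2AC25 fell by 0.80 (SE 0.12, adjusted p = 0.000305 in limma), H2AC11 fell by 0.78 (SE 0.12, adjusted p = 0.000338) and H2BC21 fell by 0.84 (SE 0.27, adjusted p = 0.0498). The H2BC21 call was at the threshold and was lost without untreated 2N replicate 1 (-0.78), 2 (-0.81) or 3 (-0.92) or untreated 4N replicate 1 (-0.93) or 3 (-0.59). With each pair of 2N and 4N libraries of a drug and number as a block, 5 of 12 fell (26.1% of all genes passed), the 2 more being H2BC12 at -0.44 (adjusted p = 0.00592 in limma) and H2AC6 at -0.38 (adjusted p = 0.00701). It was not shown that equal numbers mark the same culture, so calls with this block are a description. Without the 6 libraries that stood apart 5 fell and 1 rose (30% of all genes passed), which was H1-4, by 1.07 (SE 0.27, adjusted p = 0.0195 in limma). This rise too came with untreated 4N replicate 3, at 0.624 RPKM, left out.

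The sorts were also compared under each drug. The median change of the 12 genes between 4N and 2N cells was -0.17 with cytochalasin D and -0.31 with ZM447439, beside -0.17 in untreated cells. With cytochalasin D 0 of 12 genes passed between 4N and 2N cells, as did 0% of all genes in limma. At an unadjusted p under 0.05 there were 682 genes, 1 of them a histone gene. Without the 6 libraries that stood apart 4 fell, where 7.22% of all genes passed: H2BC21 by 0.40, H2BC12 by 0.29, H2AC6 by 0.58 and H4C8 by 0.38. With ZM447439 0 of 12 passed, where 7.66% of all genes did. At an unadjusted p under 0.05 in limma there were 3196 of the 13037 genes, 3 of them histone genes. With the pairs as a block 5 of 12 fell under ZM447439, where 15.5% of all genes passed: HIST2H2AA3 by 0.62, H2BC21 by 0.50, H2BC12 by 0.34, H2AC6 by 0.34 and H4C8 by 0.37, with adjusted p from 0.0104 to 0.0325 in limma. Without the 6 libraries that stood apart 6 fell under ZM447439, these 5 and H2AC20 by 0.44, and H2AC11 rose by 0.31, where 40.3% of all genes passed. The same block gave 0 calls of histone genes under cytochalasin D, where 0.023% of all genes passed.

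The difference between the sorts itself differed with treatment for H2AC25 and H2AC11. For cytochalasin D against untreated cells, the interaction of drug and sort passed for 2 of 12 genes, both higher, where 7.85% of all genes passed and 1.8% as higher. For ZM447439 it also passed for 2, both higher, where 10.1% passed and 3.52% as higher. H2AC25 had interactions of 0.92 (SE 0.17, adjusted p = 0.0037 in limma) and 1.03 (SE 0.17, adjusted p = 0.00181), and H2AC11 of 0.82 (SE 0.17, adjusted p = 0.00717) and 1.02 (SE 0.17, adjusted p = 0.0018). Both genes were lower in 4N than in 2N cells without a drug, while under the drugs their differences between the sorts were 0.04 to 0.25 and did not pass. Both drugs were set against the same untreated libraries. With the pairs as a block H4C8 passed too, at -0.34 with cytochalasin D and -0.31 with ZM447439, and HIST2H2AA3 at -0.81 with ZM447439, which made 3 and 4 of 12 where 14.8% and 19.2% of all genes passed. When the 6 libraries that stood apart were left out 4 passed for each drug (21.2% and 37.4% of all genes passed), H2AC25, H2AC11, H4C8 and HIST2H2AA3. H4C8 then had -0.36 and -0.35 and HIST2H2AA3 -0.76 and -1.09, for cytochalasin D and ZM447439. The genes passing with the block depended on the scale. On RPM with the pairs as a block H4C8 passed for neither drug (adjusted p = 0.157 and 0.0977 in limma). H2BC21 and H3C12 passed there with cytochalasin D, and HIST2H2AA3, H2AC6 and H2BC11 with ZM447439, besides H2AC25 and H2AC11. In that fit 16.8% and 22.1% of all genes passed.

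The drugs were also set against each other. In 4N cells 3 of 12 histone genes were higher with cytochalasin D than with ZM447439 and 0 lower, where 43.5% of all genes passed and 15.7% as higher. They were HIST2H2AA3 by 0.95 (SE 0.21, adjusted p = 0.002 in limma), H2AC20 by 0.67 (SE 0.19) and H2AC25 by 0.49 (SE 0.12). The same 3 were higher in 2N cells, by 0.70, 0.52 and 0.59, where 36.9% of all genes passed and 13.7% as higher. The 2N calls of HIST2H2AA3 and H2AC20 were lost without cytochalasin D 2N replicate 1 (0.53 and 0.29), which left 1 of 12. In that fit 34.8% of all genes passed. The H2AC20 call was also lost without cytochalasin D 2N replicate 3 (0.57) and ZM447439 2N replicate 2 (0.43) or 3 (0.49). Without the 6 libraries that stood apart 6 were higher in each sort (57.3% of all genes passed in 4N and 50.5% in 2N cells), and the 3 more were H2BC21, H2AC6 and H4C8, by 0.43, 0.25 and 0.21 in 4N cells and 0.26, 0.42 and 0.23 in 2N cells. H2BC12 differed by 0.04 and -0.03 (SE 0.15) and did not pass in either sort. Doses of the drugs could not be matched, since the labels give none for cytochalasin D.

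Because RPKM over a long span hides genes with many reads, the same fit was run on RPM, an alternative added after the data were seen. It tested 23175 genes with a mean of at least 0.2 RPM, among them 22 of the 35 histone genes, on the scale log2(RPM + 0.1). In 4N cells 13 of 22 rose and 0 fell under cytochalasin D (68% of all genes passed, 31.8% as higher and 36.2% as lower) and 10 rose and 0 fell under ZM447439 (52.8% passed, 24.1% as higher and 28.7% as lower). In 2N cells 13 rose and 2 fell under cytochalasin D (63.4% passed, 31.1% as higher and 32.3% as lower) and 7 rose and 3 fell under ZM447439 (51.3% passed, 24.5% as higher and 26.8% as lower). These counts include H3C4, whose untreated means lay below the minimum. In untreated 4N against 2N cells 0 rose and 6 fell, where 18.2% passed and 6.62% as lower. H2AC6 differed most between these sorts, by -1.54 on RPM beside -0.38 on log2(RPKM + 0.5). H2BC21 and H2AC11 followed, at -1.34 and -1.21 on RPM.

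**Figure D3:**
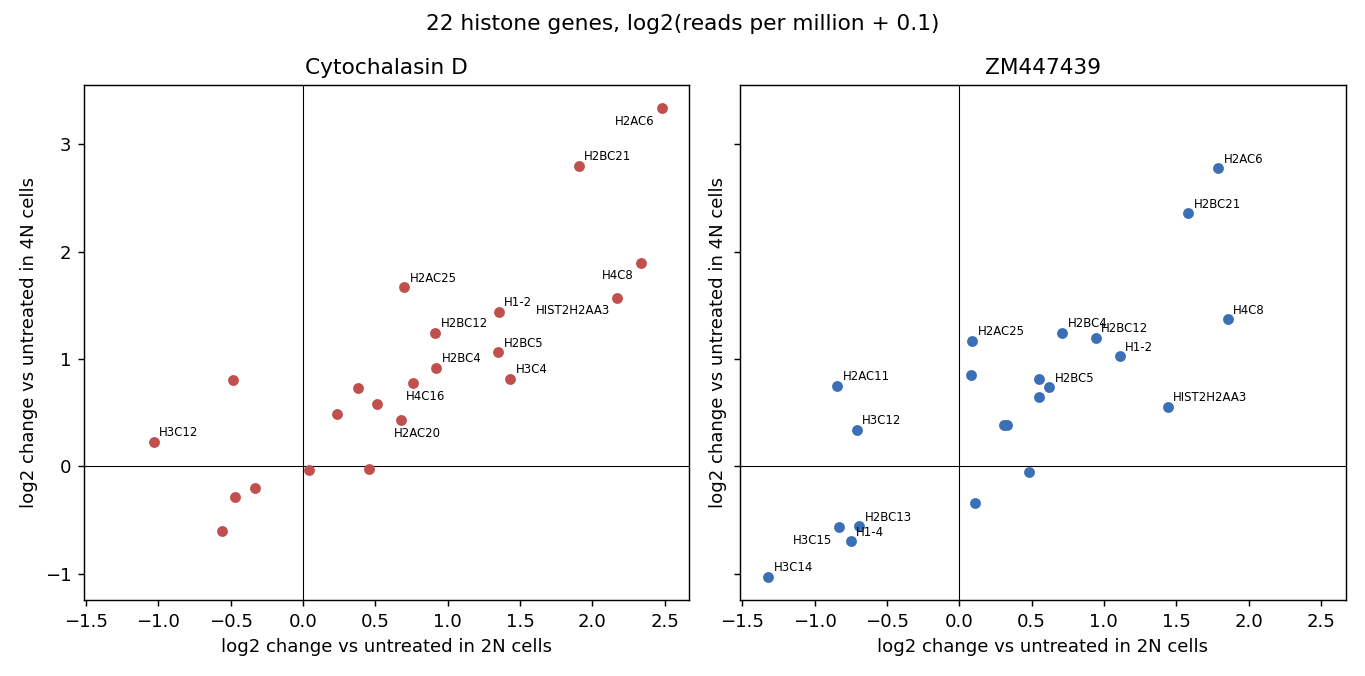
Log2 change of the 22 histone genes tested on RPM with each drug, in 2N cells on the x axis and in 4N cells on the y axis; each point is 1 gene. H2AC6 lies farthest up, at 3.33 with cytochalasin D and 2.77 with ZM447439 in 4N cells. H3C12, H2AC11, H1-4, H2BC13 and H3C14 lie left of 0 with each drug, and H3C15 lies left of 0 with ZM447439.

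On this scale the change of H2AC6 was 3.33 (SE 0.47) and 2.77 in 4N and 2.48 and 1.79 in 2N cells, for cytochalasin D and ZM447439. It held 4.65, 5.14 and 3.13 RPM in untreated 2N and 2.14, 2.16 and 0.542 in untreated 4N cells, against 9.85 to 35.2 with cytochalasin D and 7.41 to 19.6 with ZM447439. H4C8 changed by 1.90 and 1.37 in 4N and by 2.34 and 1.86 in 2N cells. The order of the genes by size of change thus depended on the scale, with H2BC21 first in 4N cells on RPKM and H2AC6 first on RPM. Among the H2A genes in 2N cells with cytochalasin D, HIST2H2AA3 was first on RPKM. On RPM it changed by 2.17, below the 2.48 of H2AC6.

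The genes below are named because of their values and lie outside the rule for naming genes. H2BC5 and H2BC4, also named HIST1H2BD and HIST1H2BC, are H2B genes with known polyadenylated forms. H2BC5 rose with cytochalasin D by 1.06 in 4N and 1.35 in 2N cells and differed with ZM447439 by 0.74 and 0.62, which did not pass (SE 0.35). H2BC4 rose with cytochalasin D by 0.92 in both sorts and with ZM447439 by 1.24 in 4N cells (SE 0.31). With ZM447439 in 2N cells H2BC4 did not pass. It held 2.17, 1.02 and 1.25 RPM there, against 0.613, 0.978 and 0.925 RPM in untreated 2N cells. Including these, all 6 of the listed genes with known polyadenylated forms were tested on this scale, and 6, 5, 6 and 4 of them rose with cytochalasin D in 4N, ZM447439 in 4N, cytochalasin D in 2N and ZM447439 in 2N cells, where 31.8%, 24.1%, 31.1% and 24.5% of all genes passed as higher. On RPKM 4 of the 6 were tested, and these 4, H1-2, H2BC21, H2BC12 and H2AC6, rose in each of the 4 comparisons with medians of 1.35, 0.97, 1.37 and 1.00 in the same order, where 26.1%, 19.6%, 27.1% and 23.6% of all genes passed as higher. H2AC6 reached the RPKM minimum through the drug groups and had to differ, so this count and these medians are a description. Histone genes outside this list rose too: of all 12 tested on RPKM, 9, 8, 9 and 7 rose in the same order. The list was chosen with earlier results of these data known.

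H3 genes were tested on RPM alone. H3C4 had means of 0.191 and 0.168 RPM in untreated 2N and 4N cells and reached the minimum of 0.2 RPM through the drug groups, so it had to differ and its values are a description. It was higher with cytochalasin D by 0.82 in 4N and 1.43 in 2N cells (SE 0.28), from 0.0894, 0.274 and 0.211 RPM in untreated 2N to 0.990, 0.589 and 0.475 in cytochalasin D 2N cells. H3C12 went the other way, with 0.677, 0.90 and 0.730 RPM in untreated 2N cells and 0.495, 0.332 and 0.193 with cytochalasin D. It fell by 1.03 with cytochalasin D and 0.71 with ZM447439 in 2N cells (SE 0.28) and was lower by 0.96 on the log2 scale in untreated 4N than 2N cells (adjusted p = 0.0276 in limma). H3C14, which has a near-identical copy in H3C15, fell by 1.32 with ZM447439 in 2N cells (SE 0.50, adjusted p = 0.0366 in limma), where its mean was 0.147 RPM, under that minimum. H4C16, an H4 gene on chromosome 12, rose by 0.77 in 4N and 0.76 in 2N cells with cytochalasin D (SE 0.22). H4C3, the gene with the highest mean below the RPKM minimum, had 1.48, 0.930 and 0.421 RPKM in untreated 4N cells and 0.0728 to 0.592 RPKM in the other 15 libraries, and was not tested on either scale.

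Partners of head-to-head pairs, which start on opposite strands within 215 to 248 bases of each other, share 1 promoter region. There were 6 such pairs among the 35 genes. H2BC21 and H2AC20 start 236 bases apart on chromosome 1, and their changes with cytochalasin D in 4N cells on log2(RPM + 0.1) were 2.80 (SE 0.36) and 0.43 (SE 0.22). H2AC6 and H2BC4 start 246 bases apart on chromosome 6, with changes of 3.33 (SE 0.47) and 0.92 (SE 0.31) in the same comparison. H2AC11 and H2BC11, 248 bases apart, changed by 0.80 (SE 0.20) and 0.73 (SE 0.39, not called). H2AC13 and H2BC13, 244 bases apart, had 0.58 (SE 0.22) and -0.61 (SE 0.39, not called). The difference within a pair was not tested. H2AC25 starts 230 bases from H2BC26, which was too low to test at 0.0745 to 0.526 RPKM, and the pair H2AC1 and H2BC1 was at 0.

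Most of the tested genes for making histone messages fell under the drugs. These lists were chosen with earlier results of the same data known and are described by count. SLBP measured 5.03, 5.12 and 5.35 RPKM in untreated 2N and 3.15, 3.23 and 2.71 RPKM in untreated 4N cells. It measured 1.68, 1.77 and 1.75 RPKM in 2N and 1.63, 1.74 and 1.78 RPKM in 4N cells under cytochalasin D, and 2.46, 2.61 and 2.63 RPKM in 2N and 2.10, 2.51 and 2.36 RPKM in 4N cells under ZM447439. All drug libraries were below all untreated ones, and cytochalasin D below ZM447439. SLBP fell by 1.34 and 0.89 in 2N and by 0.67 and 0.32 in 4N cells with cytochalasin D and ZM447439 (SE 0.06), and by 0.69 in untreated 4N against 2N cells (adjusted p = 2.92e-06 in limma).

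**Figure D4:**
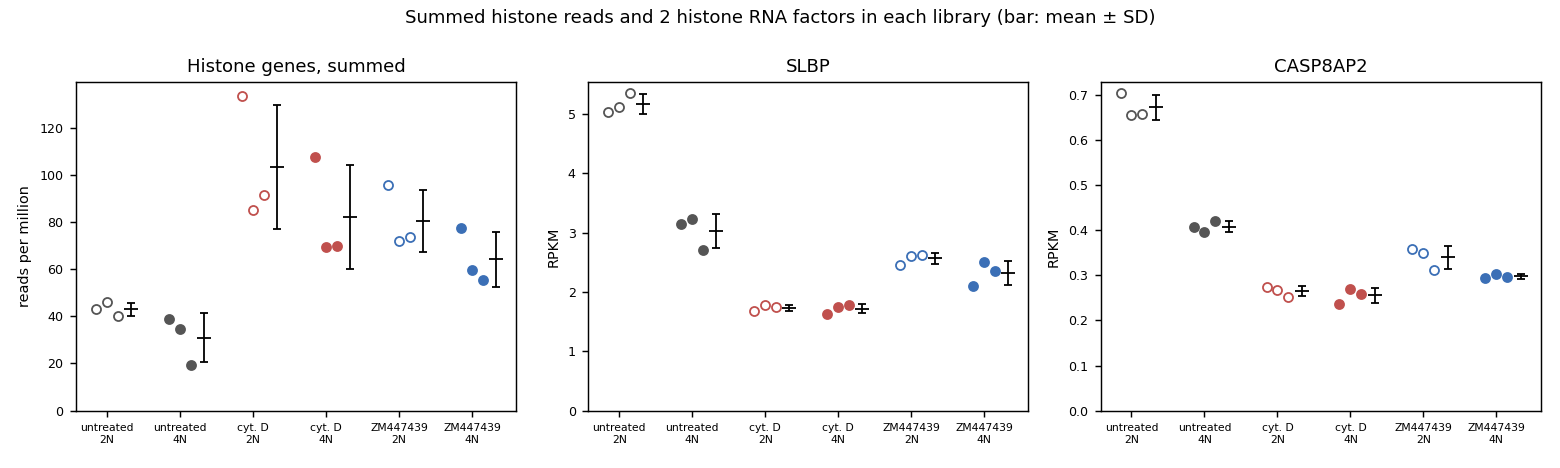
Summed RPM of the 35 histone genes, and RPKM of SLBP and CASP8AP2, in each library by treatment and sort (open points 2N, filled points 4N, bars mean ± SD of 3 libraries). The summed histone reads of the drug libraries, 55.4 to 133, lie above the untreated 19.3 to 45.9, while SLBP and CASP8AP2 are highest in untreated 2N cells and lowest under cytochalasin D.

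NPAT and CASP8AP2, which act at the histone locus bodies where these genes are transcribed and their messages cut, were tested on RPM. NPAT fell by 0.88 and 0.60 in 2N and by 0.55 and 0.37 in 4N cells with cytochalasin D and ZM447439 (SE 0.06). CASP8AP2 fell by 1.34 and 0.98 in 2N and by 0.67 and 0.45 in 4N cells (SE 0.07), and by 0.72 in untreated 4N against 2N cells. Of 17 genes listed for histone gene transcription and message processing 11 were tested on RPKM, and in 4N cells 10 fell and 1 rose with cytochalasin D, and 8 fell and 0 rose with ZM447439, where 44.4% and 35.5% of all genes passed as lower. In 2N cells 10 fell and 1 rose with cytochalasin D and 9 fell and 1 rose with ZM447439, where 39.5% and 32.5% passed as lower. Their medians were -0.42 and -0.32 in 4N cells, beside -0.13 and -0.07 for all genes, and -0.46 and -0.35 in 2N cells, beside -0.08 and -0.04. The gene that rose was HINFP, a transcription factor of H4 genes, by 0.20 with cytochalasin D in 4N cells and by 0.27 and 0.19 with cytochalasin D and ZM447439 in 2N cells (SE 0.06). With ZM447439 in 4N cells HINFP, NCBP2 and LSM10 did not pass, at 0.12, 0.03 and -0.00070.

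Most histone chaperones, which carry histones to DNA, fell with both drugs. Of 20 listed, 17 were tested, and in 4N cells 17 fell with cytochalasin D and 16 with ZM447439, with medians of -1.07 and -0.68, where 44.4% and 35.5% of all genes passed as lower. In 2N cells 15 and 14 fell, with medians of -0.94 and -0.64, where 39.5% and 32.5% passed as lower; the same shares hold for the 2 lists that follow. ASF1B, which hands H3 and H4 to the replication fork, fell by 2.73 and 1.65 in 4N and by 2.53 and 1.5 in 2N cells. S-phase genes fell as well: of 30 listed 21 were tested, and 20 and 19 fell in 4N and 21 and 21 in 2N cells, with medians of -2.20, -1.08, -2.54 and -1.62. UNG, which removes uracil from DNA, rose with ZM447439 in 4N cells by 0.33 (SE 0.09). All 15 G2/M genes fell in each of the 4 comparisons, with medians of -3.21 and -2.39 in 4N and -2.10 and -1.77 in 2N cells. In untreated 4N against 2N cells 11 of the 21 S-phase genes fell and 2 rose, and 14 of the 15 G2/M genes rose, where 17.4% of all genes passed. The medians of these lists were thus below 0 under the drugs and those of the histone genes above 0, and their part in the histone values was not tested.

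**Figure D5:**
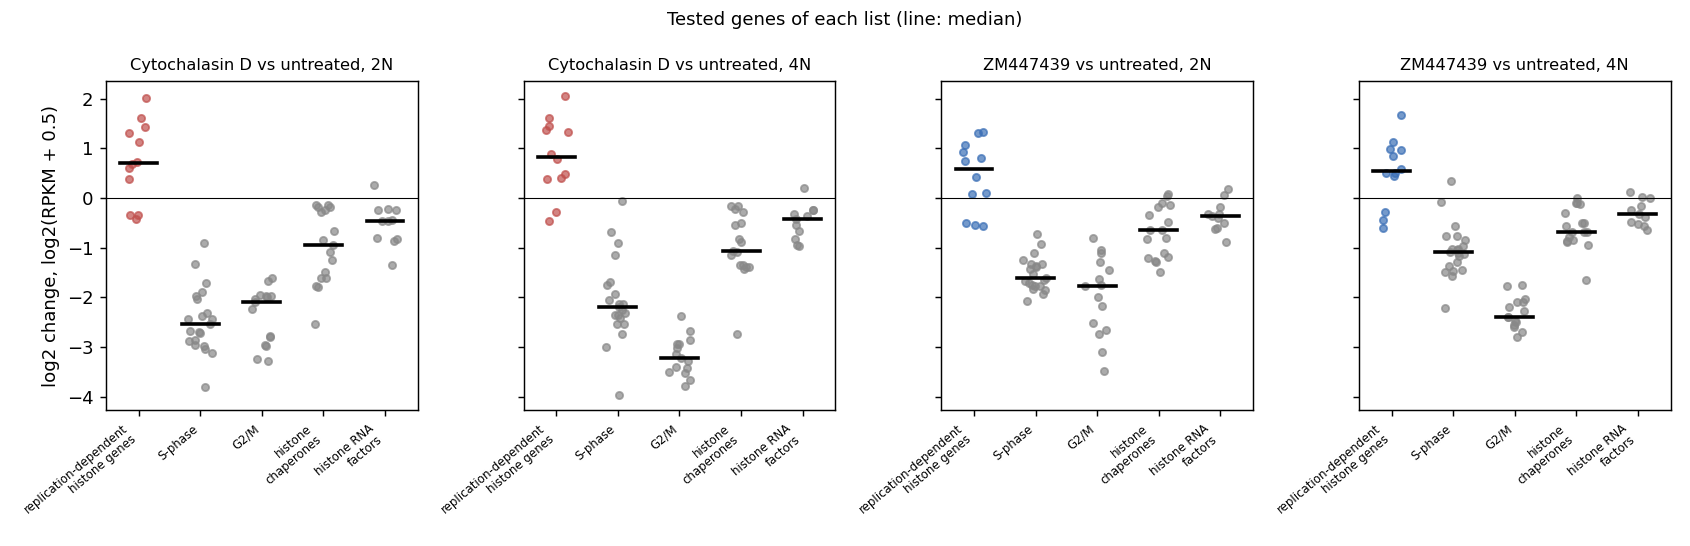
Log2 change of RPKM + 0.5 on the y axis for each tested gene of 5 lists, with each drug in each sort; points are genes and black lines medians. The histone genes have medians of 0.54 to 0.83, and the medians of the S-phase, G2/M, chaperone and histone RNA factor genes lie below 0 in all 4 panels.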

How the data were processed

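The authors deposited 1 table of RPKM values for 57773 Ensembl identifiers in 18 libraries from a non-stranded poly(A) kit. Per the submitters' processing notes the build was hg19 and the tools were edgeR, TopHat2 and CASAVA 1.8.2; the counter and annotation are not given in the sources used here. For values worth under 200 reads, 89.1% to 89.7% came out as whole reads within 0.05 reads by gene span and 9.25% to 10.1% by exon length. Spans of the histone genes were taken from the steps of their own values, and reads of all 33 above 0 came out whole within 0.08 reads.

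Symbols were found for 52338 rows. The members and lists were chosen with earlier results of these data known. Genes were tested with limma 3.58.1 in R 4.3.3 on log2(RPKM + 0.5) where the mean was at least 0.5 RPKM, with 6 group means (12 residual degrees of freedom), a trend and Benjamini-Hochberg adjustment, in 11 two-sided comparisons. The scripts were tested on simulated data. Every tested histone gene may be named; all 18 values are given for the 6 most abundant, for those called in 2 comparisons that share no library, and for listed polyadenylated genes that passed.

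Numbers were checked as pairs. Same-numbered 2N and 4N libraries of a drug correlated in their deviations from the group means in all 9 cases (0.19 to 0.63). They were used as a block by culture in comparisons of the sorts. Unlike-numbered pairs ranged from -0.54 to 0.39 and were below 0 between a library that stood apart and any other number. Among libraries that did not stand apart, unlike-numbered pairs were 0.17 to 0.39 and same-numbered pairs 0.19 to 0.40. The check thus did not show that equal numbers mark the same culture, and calls with this block are a description. Across drugs 28 of 36 same-numbered pairs were above 0.1 (-0.21 to 0.52), so numbers were not taken to pair drugs. Replicates may share more than the labels say, and p-values measure the spread between these libraries. Sequences come from GENCODE 29 and RefSeq (GRCh38.p14); no hg19 coordinates were used.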

Additional observations from a re-analysis of the deposited data

Results flagged for a closer look

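For 2 histone genes the step from 2N to 4N cells was not the same with and without a drug, by the interaction test in limma. For H2AC25 the interaction with cytochalasin D was 0.92 (SE 0.17, adjusted p = 0.0037) and with ZM447439 1.03 (SE 0.17, adjusted p = 0.00181). For H2AC11 it was 0.82 (SE 0.17, adjusted p = 0.00717) and 1.02 (SE 0.17, adjusted p = 0.0018). Each of these 4 remained past the threshold in the alternatives that tested the gene, leaving out each library included.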

How the results depend on the processing

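Numbers of histone genes called moved most with the filter, the block and the libraries that stood apart. With a filter of at least 2 RPKM, which left 4 of the 12 genes, calls were 1 for untreated 4N against 2N cells (13.6% of all genes passed), 4 and 4 for cytochalasin D in 2N and 4N cells (70.6% and 73.4%), 3 and 3 for ZM447439 (59.3% and 56.4%), and 1 for each interaction (5.27% and 7.49%). With the replicate block by culture they were 5 for untreated and 5 for ZM447439 between the sorts (26.1% and 15.5%) and 4 for the ZM447439 interaction (19.2%). With the replicate block by number over all drugs, 2 passed for ZM447439 between the sorts (11.2%) and 5 for cytochalasin D against ZM447439 in 2N cells (42.4%); neither block moved any other count by over 1.5 times. On RPM 6 passed in untreated cells (18.2%), and 8 with the culture block (29.3%), which also gave 3 for ZM447439 between the sorts (18.1%) and 4 and 5 for the cytochalasin D and ZM447439 interactions (16.8% and 22.1%). Without the 6 libraries that stood apart calls were 6, 4 and 7 between the sorts for untreated, cytochalasin D and ZM447439 cells (30%, 7.22% and 40.3%), 6 and 6 between the drugs in 4N and 2N cells (57.3% and 50.5%), and 4 and 4 for the interactions (21.2% and 37.4%).

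Leaving out each library in turn gave 2 to 3 calls for untreated 4N against 2N cells, 0 to 0 for cytochalasin D and ZM447439 between the sorts, 8 to 10 for cytochalasin D in either sort, 7 to 8 and 8 to 9 for ZM447439 in 2N and 4N cells, 1 to 3 and 3 to 3 between the drugs in 2N and 4N cells, and 2 to 2 and 2 to 3 for the interactions. In these fits 61.4% to 65.1% and 66.2% to 68.9% of all genes passed for cytochalasin D in 2N and 4N cells. For ZM447439 these shares were 49.5% to 58.1% and 49.4% to 52.7%, and between the drugs 27.7% to 34.8% and 36.6% to 42.4%. Between the sorts they were 12.3% to 13.6%, 0% to 0.0384% and 1.6% to 20.9% for untreated, cytochalasin D and ZM447439 cells. For the interactions they were 5.5% to 8.68% and 6.01% to 18.6%. The fall of H2BC21 in untreated 4N cells was also lost with a pseudocount of 1 (-0.61), without a filter, with a filter of 2 RPKM, on the compared libraries alone and under both rescalings (-0.85 and -0.78). Without a filter H2AC13 passed in 1 of its 4 drug comparisons. No called change of a histone gene reversed. Low reads limit H2BC13, H2AC13, H2AC20 and H1-4, at 14.7, 24.6, 51.1 and 57.3 per library on average. They also limit many of the 23 genes below the filter. Some of these 23 had more reads than H1-4 but a long span, such as H2BC15 with 129 reads over 17165 bases.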
